A study of Rattus norvegicus with 9 samples.

Results

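Described here are 10 rat genes that mark T cells or carry out their killing function: the CD8 chains Cd8a and Cd8b, the co-receptor Cd4, the CD3 chains Cd3d, Cd3e and Cd3g, the surface proteins Cd2 and Cd5, and the cytotoxic granule proteins Gzmb and Prf1. They were taken by symbol from the 16606 genes on the array and selected on the difference between ischemia-reperfusion (I/R) and Sham arrays, where Cd8a was among the genes with the greatest rise, so their values in I/R versus Sham are a description and carry no test. The 10 genes had 11 of the 30367 probes, and for Gzmb, which had 2, the brighter probe stands for the gene. A probe is called above background on an array where the scanner software marked it as well above background there. Testing was limited to the 23747 probes that met this on every array of some group, which included 9 of the 10 genes and left out Cd2.

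The samples were brain hemispheres of male Sprague Dawley rats collected at day 14, with 3 Sham, 3 I/R and 3 DHI arrays. I/R rats had the middle cerebral artery blocked by a suture for 2 h before blood flow was restored. In Sham rats the external carotid artery was isolated and no suture was inserted. Danhong injection (DHI) is a Chinese herbal medicine given into the tail vein each day after the operation, and DHI rats had the same I/R operation. Sham rats received solvent, and the study's methods name no solvent for I/R rats. The age of the rats and whether blood was flushed from the vessels are not given in the sources used here, nor is it stated whether RNA of several rats was pooled, and p-values then measure the spread between these arrays. The whole hemisphere was measured, so more cells of a type and more RNA per cell cannot be told apart.

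T cells recognise peptides through the T cell receptor, which signals into the cell through the CD3 chains. CD8, a pair of CD8A with CD8B or of 2 CD8A chains, binds MHC class I and marks cytotoxic T cells, whereas CD4 binds MHC class II and marks helper T cells. Cytotoxic T cells and natural killer (NK) cells kill by releasing perforin (Prf1), which forms pores, and granzyme B (Gzmb), a protease that enters through them. In the rat these genes are not exclusive to T cells, because macrophages and microglia can carry CD4 and some NK cells and activated macrophages carry CD8A. In the brain, T cells are sparse in health and enter the tissue after stroke.

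Values are log2 signals over the 75th percentile of signal on the same array, so 0 is the level of a bright probe and the most negative values are near background. A level is compared between arrays for the same gene only, since probes differ in brightness. On the 9 arrays, 75.2% to 78.9% of probes were above background, and the 75th percentile of signal was 2570 to 3464 on the Sham and I/R arrays and 1816 to 2785 on the DHI arrays. The DHI arrays were on slide 2, scanned apart from slide 1 with the Sham and I/R arrays, so slide and DHI cannot be told apart. One DHI array (DHI 1) stood close to the I/R arrays over the genes that I/R raised. On a scale from 0 at the Sham mean to 1 at the I/R mean, the median position over the 6335 probes with no overlap between higher I/R and lower Sham arrays was 0.908 for DHI 1, 0.0179 for DHI 2 and 0.175 for DHI 3. The DHI comparisons of the 10 genes and of the gene lists are therefore given with and without DHI 1.

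The sequences behind the measurement are shown for a CD8 and a CD3 gene whose probes gave unlike patterns. The probe of Cd8b (rn4 chr4:104542505-104542564) lay near that of Cd8a (chr4:104593483-104593542), and the probe of Cd3e (chr8:47950313-47950372) near those of Cd3d (chr8:47936669-47936728) and Cd3g (chr8:47924376-47924435). These are the coordinates of the files, and no exon annotation of that build was used.
Cd8b probe: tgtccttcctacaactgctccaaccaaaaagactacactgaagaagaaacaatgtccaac
Cd3e probe: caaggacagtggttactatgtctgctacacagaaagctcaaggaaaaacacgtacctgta

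The bases before the gene start are shown for Cd8a, which rose most of the 10 genes. They are also shown for Cd3d and Cd3g, which are neighbours read in opposite directions, and for the granule genes Gzmb and Prf1. All 10 symbols matched the RefSeq gene table. Promoters of Cd4 and Cd8b were not used here, which left 8. The 250 bases before each start were taken from RefSeq (GRCr8), and the starts of Cd3g and Cd3d lay 1601 bases apart on chromosome 8. Capitals mark matches on either strand to letters bound by factors that act in T cells: TGTGGT (RUNX), GGAAGT (ETS), CAGCTG (E proteins) and TGAGTCA (AP-1).
Cd8a, chr4:104923866-104924115, plus strand: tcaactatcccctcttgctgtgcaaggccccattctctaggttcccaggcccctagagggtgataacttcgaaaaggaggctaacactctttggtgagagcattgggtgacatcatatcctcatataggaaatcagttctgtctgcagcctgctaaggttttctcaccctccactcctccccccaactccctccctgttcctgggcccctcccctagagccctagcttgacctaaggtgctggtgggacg
Cd3d, chr8:54185269-54185518, plus strand: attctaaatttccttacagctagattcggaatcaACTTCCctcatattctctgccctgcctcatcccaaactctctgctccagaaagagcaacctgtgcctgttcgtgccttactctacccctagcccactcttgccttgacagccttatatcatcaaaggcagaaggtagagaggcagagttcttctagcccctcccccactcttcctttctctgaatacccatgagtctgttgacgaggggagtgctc
Cd3g, chr8:54183919-54184168, minus strand: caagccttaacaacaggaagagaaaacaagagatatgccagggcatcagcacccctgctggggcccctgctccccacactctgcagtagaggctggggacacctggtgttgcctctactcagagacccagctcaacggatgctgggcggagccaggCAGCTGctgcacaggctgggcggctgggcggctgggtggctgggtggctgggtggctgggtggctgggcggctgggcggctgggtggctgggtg
Gzmb, chr15:34462470-34462719, minus strand: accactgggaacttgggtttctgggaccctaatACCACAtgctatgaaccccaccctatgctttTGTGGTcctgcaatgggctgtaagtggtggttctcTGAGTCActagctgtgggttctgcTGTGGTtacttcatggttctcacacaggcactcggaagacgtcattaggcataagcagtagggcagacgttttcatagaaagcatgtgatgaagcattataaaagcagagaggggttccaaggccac
Prf1, chr20:29788790-29789039, plus strand: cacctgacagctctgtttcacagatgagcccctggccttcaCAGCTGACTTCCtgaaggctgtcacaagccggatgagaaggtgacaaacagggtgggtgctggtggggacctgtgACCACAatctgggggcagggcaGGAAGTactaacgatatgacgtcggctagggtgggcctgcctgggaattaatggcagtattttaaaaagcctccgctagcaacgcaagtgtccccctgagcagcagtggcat

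TGTGGT was found in 3 of the 8 promoters (Cd2, Gzmb and Prf1) and in 14.5% of all 33469 promoters of the same length. GGAAGT was found in 4 of 8 (Cd3d, Cd3e, Cd5 and Prf1) and in 19.2% of all. CAGCTG was found in 4 of 8 (Cd2, Cd3g, Cd5 and Prf1) and in 11.97% of all, and TGAGTCA in 1 of 8 (Gzmb) and in 4.05% of all. No match overlapped another, and in Prf1 a CAGCTG ran directly into a GGAAGT read on the other strand. The Cd8a window held none of these letters. A match describes letters only.

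Cd8a had the widest range of the 10 genes. Its log2 signal was -9.95, -10.05 and -10.08 on the Sham arrays, -1.63, -1.08 and -2.71 on the I/R arrays, and -1.57, -9.29 and -9.47 on the DHI arrays. In unscaled signal this was 2.43 to 2.61 in Sham, 531 to 1448 in I/R, 941 in DHI 1, and 2.90 and 3.00 in DHI 2 and DHI 3. All I/R arrays and DHI 1 were high, and the others were not above background. I/R and Sham did not overlap, and DHI 1 lay inside the I/R range. The I/R mean (-1.81 ± 0.83, SD, n = 3) was at least 131-fold above Sham, a bound because no Sham array measured the gene. The measured log2 difference was 8.22 (SE 1.88), and the bound on it was 7.03. Each SE here comes from 1 model of all 9 arrays, so it also holds the spread of the DHI arrays. For Cd8a their SD was 4.51, beside 0.07 in Sham.

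Cd8b, the partner chain of CD8A on cytotoxic T cells, was above background on all 9 arrays. It read -4.95, -4.41 and -4.61 in Sham, -2.35, -1.83 and -2.85 in I/R, and -2.01, -5.15 and -5.09 in DHI. The I/R arrays were above all Sham arrays, DHI 1 was inside the I/R range, and DHI 2 and DHI 3 were below the lowest Sham array. The I/R mean (-2.34 ± 0.51) exceeded the Sham mean (-4.66 ± 0.27) by 2.32 (SE 0.78) on the log2 scale, a fold change (FC) of 4.98. Both CD8 chains were thus higher in I/R than in Sham, by at least 131-fold for Cd8a and 4.98-fold for Cd8b.

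Cd4, the co-receptor of helper T cells, was also above background on all arrays. It read -5.97, -5.87 and -6.13 in Sham, -2.001, -2.64 and -3.45 in I/R, and -3.44, -5.66 and -5.39 in DHI. All I/R arrays were higher than all Sham arrays. DHI 1 was just above the lowest I/R array, and the other 2 DHI arrays were slightly above Sham. The difference between I/R (-2.70 ± 0.73) and Sham (-5.99 ± 0.13) was 3.29 (SE 0.59), an FC of 9.79.

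**Figure D1:**
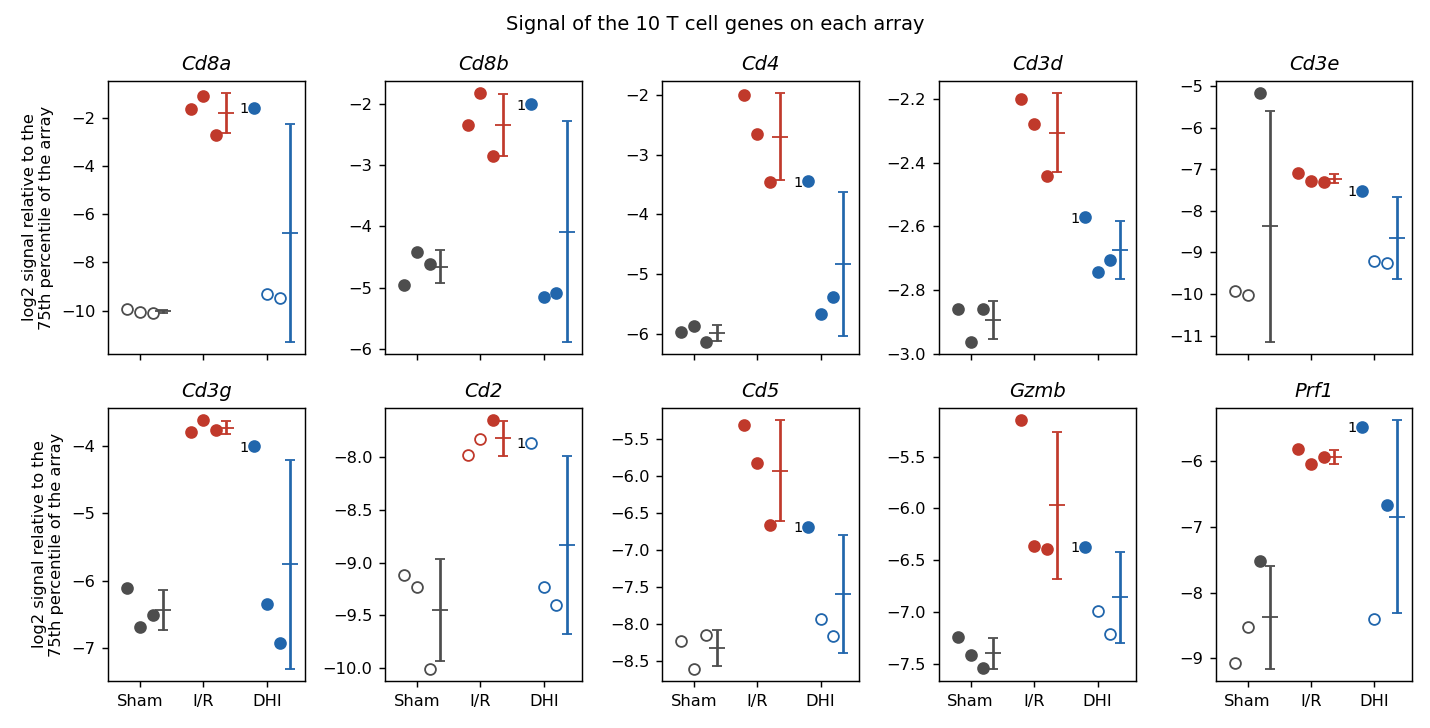
Log2 signal over the array's 75th percentile (vertical axis, own scale for each gene) for the 10 genes on the 3 Sham, 3 I/R and 3 DHI arrays, with the mean ± SD (n = 3) beside the points. Filled points were above background, open points were not, and DHI 1 is numbered. For Cd8a the I/R arrays and DHI 1 lie between -2.71 and -1.08 and the others at -9.29 or below. For Cd3e the highest array is Sham 3.

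The CD3 chains, which pass the signal of the T cell receptor into the cell, did not behave alike. Cd3g had log2 signals of -6.10, -6.69 and -6.52 in Sham, -3.80, -3.62 and -3.76 in I/R, and -4.01, -6.35 and -6.92 in DHI. The I/R arrays lay close together and far above Sham, DHI 1 was just below them, and the other 2 DHI arrays were near Sham. The log2 difference between I/R (-3.72 ± 0.09) and Sham (-6.44 ± 0.30) was 2.71 (SE 0.66), an FC of 6.55.

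Cd3d, the neighbour of Cd3g, moved far less. It read -2.86, -2.96 and -2.86 in Sham, -2.20, -2.28 and -2.44 in I/R, and -2.57, -2.74 and -2.71 in DHI. All 3 groups were separate, in the order Sham, DHI, I/R. In unscaled signal DHI 2 and DHI 3 (277 and 325) were below the Sham arrays (352 to 363), so the place of DHI above Sham rests on the scaling. The I/R mean (-2.31 ± 0.12) exceeded the Sham mean (-2.89 ± 0.06) by 0.59 (SE 0.14), an FC of 1.502. The probes of Cd3d and Cd3g each had 10 spots per array and the others had 2.

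Cd3e was the exception among the 10 genes. The log2 signals were -9.93, -10.02 and -5.18 in Sham, -7.10, -7.28 and -7.30 in I/R, and -7.52, -9.21 and -9.26 in DHI. Sham 3 was the highest of all 9 arrays, and it was the only Sham array on which the gene was above background. Its 2 spots gave unscaled signals of 77.3 and 68.1, neither marked as an outlier, beside 2.63 and 2.65 in Sham 1 and Sham 2. The groups therefore overlapped, and the log2 difference of 1.15 (SE 1.21) was smaller than its error. Without Sham 3, a choice made after seeing the data, it was 2.75. No Sham array was then above background, so that value depends on signals at background. Cd3d and Cd3g in Sham 3 lay between their values in Sham 1 and Sham 2.

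Cd2, an adhesion receptor of T and NK cells, was close to background everywhere. The log2 signals were -9.12, -9.23 and -10.01 in Sham, -7.98, -7.83 and -7.65 in I/R, and -7.86, -9.23 and -9.41 in DHI. It cleared background on 1 of 3 I/R arrays (I/R 3) and on no Sham or DHI array, so it was not tested. With 1 array measured, no fold is given.

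Cd5, which dampens T cell receptor signalling and also marks some B cells, had log2 signals of -8.23, -8.60 and -8.14 in Sham, -5.31, -5.82 and -6.66 in I/R, and -6.69, -7.93 and -8.15 in DHI. I/R and Sham did not overlap, and DHI 1 was just below the lowest I/R array. The I/R mean was at least 5.25-fold above Sham, since it was not above background on any Sham array, nor was it on DHI 2 and DHI 3. The interval the files give for its probe (rn4 chr1:213216483-213217309) is longer than the probe of 60 bases.

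Granzyme B and perforin are the granule proteins that kill target cells. Gzmb had log2 signals of -7.25, -7.41 and -7.54 in Sham, -5.15, -6.36 and -6.39 in I/R, and -6.37, -6.99 and -7.21 in DHI. The probe was not above background on DHI 2 and DHI 3. I/R and Sham did not overlap, and I/R 1 was well above the other arrays. On that array the 2 spots of the probe disagreed, with unscaled signals of 39.0 and 140.6. The log2 difference between I/R and Sham was 1.43 (SE 0.36) by this probe and 1.82 (SE 0.53) by the other Gzmb probe, which was dimmer.

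Prf1 had log2 signals of -9.07, -8.53 and -7.52 in Sham, -5.82, -6.04 and -5.94 in I/R, and -5.47, -8.40 and -6.66 in DHI. It was above background on 1 Sham array (Sham 3), all I/R arrays, and DHI 1 and DHI 3. DHI 1 was the highest array, and DHI 3 lay between the Sham and I/R arrays. The log2 difference between I/R and Sham was 2.44 (SE 0.69), an FC of 5.44.

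In I/R versus Sham, 8 of the 9 tested genes passed the thresholds of the study's methods, all higher in I/R. These thresholds were an unadjusted p under 0.05 and an FC over 1.5. The p came from limma, a linear model that shares the estimate of spread between probes, and not from the methods' t-test. Of all probes tested, 20.8% passed as higher and 43.1% in either direction. With a Benjamini-Hochberg adjusted p from limma, 7 genes passed, beside 16.4% of all probes that were higher. In 8 of 9 the I/R arrays lay wholly above the Sham arrays, as did 26.7% of all probes. This comparison chose the genes, so nothing is read from these counts. With another background correction (normexp) the count was 4 of 9, where 17.8% of all probes were higher, and Cd3e was at -0.13. The count of 7 with the adjusted p became 0 without scaling between arrays, and also when any 1 Sham array, I/R 1, I/R 2 or DHI 3 was left out. In each of those settings the count over all probes fell as well, from 7471 to 0 or 1. Without DHI 1, whose spread enters the shared model, 8 of the 9 genes passed with the adjusted p. Of all 23747 probes, 10266 then passed in either direction. The median log2 difference was 2.39 over the 9 genes, also with Cd8a and Cd5 at their bounds, and -0.10 over all probes.

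**Figure D2:**
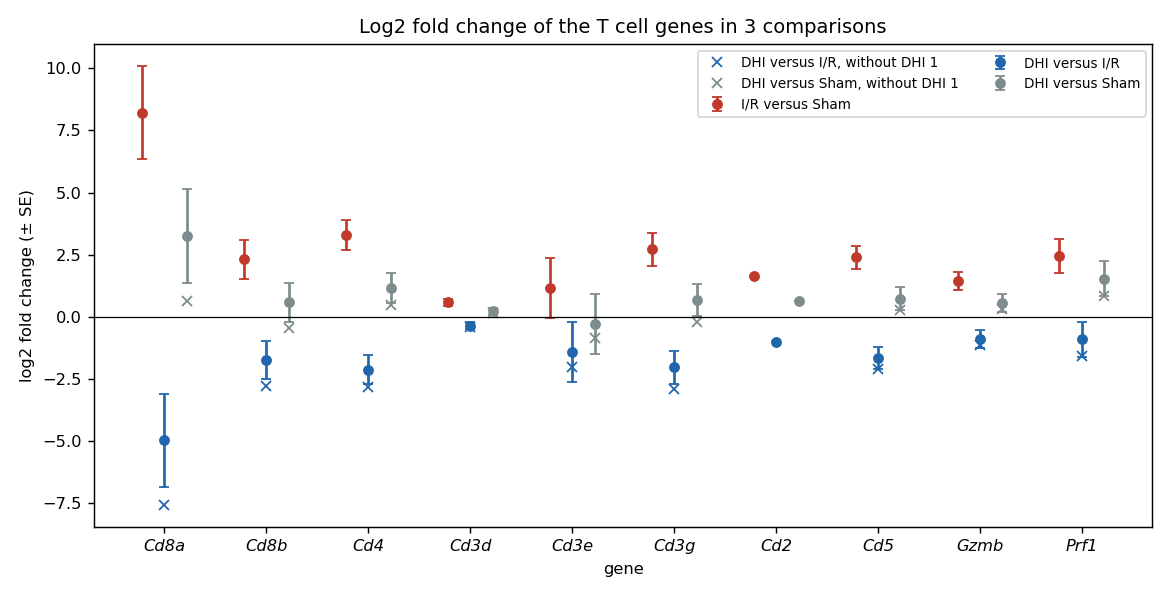
Log2 fold change ± SE of each gene (vertical axis) from 1 limma model over 9 arrays, in the 3 comparisons of the groups. Crosses show both DHI comparisons without DHI 1. Cd2 was not tested and is drawn without an error bar. Values are as measured, also where Cd8a and Cd5 were not above background in Sham and where Cd8a, Cd3e, Cd5 and Gzmb were not in DHI 2 and DHI 3. For the 9 tested genes the crosses for DHI versus I/R lie below the points.

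DHI versus I/R asks whether treatment changed these genes after the stroke. The comparison shares the I/R arrays with the one that chose the genes, as DHI versus Sham shares the Sham arrays, so neither is independent of the choice. In DHI versus I/R, all 9 tested genes had lower means in DHI, and 5 passed the methods' thresholds (Cd8a, Cd3g, Cd4, Cd5 and Gzmb), where 10.5% of all probes were lower. The median log2 fold change was -1.66, and 0.10 over all probes. With the adjusted p from limma (0.196 for each of the 5), 0 of the 9 passed, and 0.00421% of all probes passed and were lower. At an unadjusted p under 0.05 alone the count was 6 of 9.

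Cd8a differed by -4.97 (SE 1.88), Cd4 by -2.13 (SE 0.59) and Cd3g by -2.04 (SE 0.66) on the log2 scale. Cd5 differed by -1.66 (SE 0.45) and Gzmb by -0.89 (SE 0.36). Of the 4 genes that did not pass, Cd8b differed by -1.74 (SE 0.78), Cd3e by -1.44 (SE 1.21) and Prf1 by -0.91 (SE 0.69). Cd3d differed by -0.37 (SE 0.14), which is under the FC threshold. The DHI arrays lay wholly below the I/R arrays for 4 of the 9 genes (Cd3d, Cd3e, Cd3g and Cd5), as for 4.02% of all probes. The other Gzmb probe differed by -1.21 (SE 0.53) and did not pass.

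These differences turned on which DHI arrays entered. Without DHI 1, 7 of the 9 genes passed the methods' thresholds, where 19.1% of all probes were lower, and 6 passed with the adjusted p, where 40.1% of all probes passed in either direction. The log2 fold change was then -2.91 for Cd3g, -2.83 for Cd4, -2.78 for Cd8b, -1.60 for Prf1 and -0.42 for Cd3d. Cd8a, Cd3e, Cd5 and Gzmb were not above background on DHI 2 or DHI 3, so there the I/R mean was at least 84.7-fold, 1.98-fold, 4.33-fold and 2.19-fold higher. Without DHI 2, 2 of the 9 passed, where 1.8% of all probes were lower. Without DHI 3 and without I/R 1, 3 passed each, where 2.13% and 2.08% were lower. By the methods' t-test 0 of 9 passed, where 0.737% of all probes were lower. With arrays weighted by their fit to the model 8 of 9 passed, where 22.4% of all probes were lower and 12217 of 23747 passed in either direction. With normexp 3 of 9 passed (Cd8a, Cd3g and Cd4), where 7.58% of all probes were lower, Cd5 was at -0.050, and 3 of the 9 log2 fold changes turned sign (Cd3e at 0.27, Gzmb at 0.064 and Prf1 at 0.21). With only probes above background on every array, 4 of the 9 genes were tested and 2 passed, where 10% of all probes were lower.

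For most of the genes each DHI array lay near the Sham or the I/R end of the range. DHI 1 lay at or above the lowest I/R array for 6 of the 10 genes and above all Sham arrays for 9, at a median position of 0.836. Of the 6335 probes that separated I/R above Sham, 87.0% and 96.5% did so. DHI 2 and DHI 3 each lay above all Sham arrays for 5 of the 10 genes, as for 32.8% and 59.9% of those probes. The median position was 0.0942 for DHI 2 and 0.0693 for DHI 3, and neither reached the lowest I/R array for any of the 10 genes, as they did for 7.69% and 12.5% of those probes. The counts of DHI 1 are thus no higher than over those probes. DHI 3 stood nearest to I/R for Prf1, at 0.702.

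**Figure D3:**
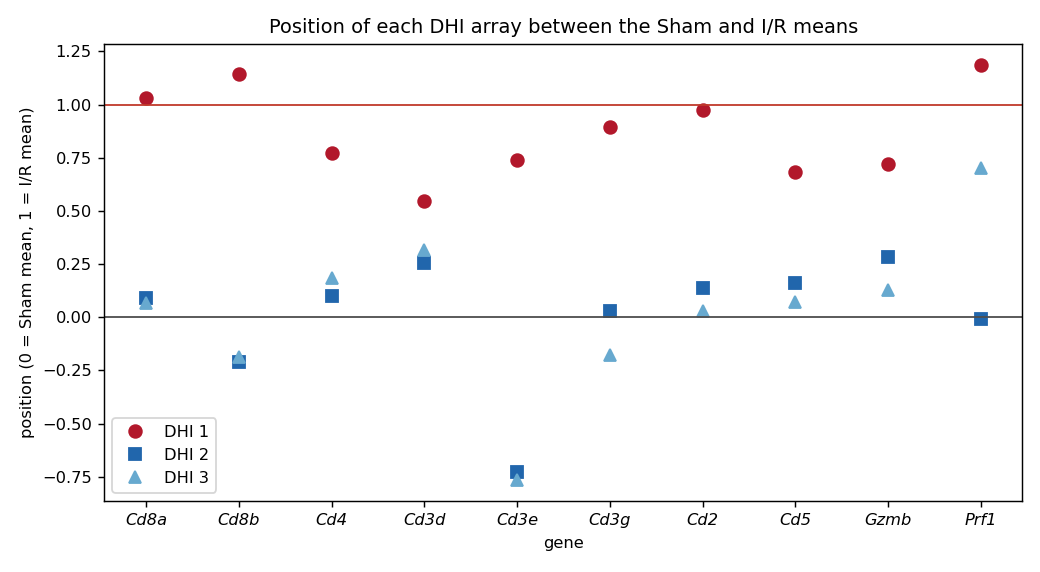
Position of each DHI array (vertical axis, no unit) between the Sham mean (0) and the I/R mean (1) of log2 signal for the 10 genes. DHI 1 runs from 0.549 (Cd3d) to 1.19 (Prf1), and DHI 2 and DHI 3 lie at or below 0.317 except DHI 3 for Prf1. For Cd3e the Sham mean is raised by Sham 3.

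In DHI versus Sham, 0 of the 9 genes passed the methods' thresholds or the adjusted p by limma, where 3.58% and 0% of all probes did, and 0 passed by the methods' t-test. At an unadjusted p under 0.05 alone the count was 0 of 9. With normexp 3 passed (Cd3g at 0.71, Cd4 at 0.90 and Prf1 at 0.72), where 5.25% of all probes were higher. The log2 fold changes ran from -0.29 (Cd3e) to 3.25 (SE 1.88, Cd8a), with a median of 0.68, and Cd8a was measured on DHI 1 alone. The highest after Cd8a were Prf1 at 1.53 (SE 0.69) and Cd4 at 1.16 (SE 0.59). The DHI arrays lay wholly above the Sham arrays for 4 of 9 genes (Cd8a, Cd3d, Cd4 and Gzmb), as for 10.3% of all probes. Of these, Cd3d and Cd4 were above background on all arrays, and Cd8a and Gzmb were not on DHI 2 and DHI 3. In unscaled signal the DHI arrays were wholly above Sham for 1 of the 4 (Cd8a). Gzmb there read 14.3 in both DHI 2 and DHI 3 and 14.8 to 17.1 in Sham.

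Without DHI 1 the count in DHI versus Sham was again 0, where 3.5% of all probes passed. Cd8a and Cd5 were then not above background on any array of either group. The log2 fold changes of Cd8b and Cd3g turned to -0.46 and -0.20, and those of Cd4, Cd3d and Prf1 were 0.46, 0.17 and 0.85. Without Sham 3, Cd3e turned to 1.31 and passed, as did Prf1 at 1.96, where 1.75% of all probes were higher. Neither gene was above background on Sham 1 or Sham 2, nor was Cd3e on DHI 2 and DHI 3 or Prf1 on DHI 2. These 2 values therefore rest on signals at background. Cd4 and Prf1 passed without DHI 2 (1.58 and 2.31), where 7.74% were higher, and Cd8a passed without DHI 3, where 2.13% were higher.

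Other genes of T cell function were read from lists made with earlier results of these data known, and genes named beyond the 3 brightest of a list were chosen after their values were seen. Of T cell receptor signalling and costimulation, 11 of 15 genes on the array were tested. In I/R versus Sham 7 were higher and 4 did not pass, with a median log2 fold change of 2.06. Of all probes, 20.8% were higher and 22.3% lower, and these shares also apply to the I/R versus Sham counts of the lists below. Cd6, a relative of Cd5, rose by 3.49 (SE 0.53), and the costimulatory receptor Icos was at least 10.1-fold higher, with no Sham array above background. Among those that did not pass were the kinases Lck (-0.03) and Zap70 (-0.15) and the phosphatase Ubash3a (-0.45). Cd28 and Trat1 were not above background on any array.

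In DHI versus I/R, 5 of the 11 fell (Cd6, Cd27, Icos, Ptprcap and Cd247), where 10.5% of all probes were lower and 11.5% higher. The same shares apply to the DHI versus I/R counts of the lists below. Cd6 had log2 signals of -1.90, -1.98 and -2.10 in Sham, 2.28, 1.75 and 0.47 in I/R, and 0.27, -1.23 and -1.19 in DHI. It fell by 2.22 (SE 0.53) from I/R to DHI (log2 fold change -2.71 without DHI 1) and was 1.27 (SE 0.53) above Sham (0.78 without DHI 1, which did not pass), and the 3 DHI arrays lay between the other groups.

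Of the inhibitory receptors of T cells, 5 of 6 genes on the array were tested. In I/R versus Sham 3 were higher, among them Havcr2 (3.67, SE 0.73), which macrophages and microglia also express, and Pdcd1 (1.81, SE 0.57). Ctla4 was at least 1.91-fold lower, with no I/R array above background, and Btla, the brightest, differed by -0.16 (SE 0.16). In DHI versus I/R, Havcr2 fell by 2.27 (SE 0.73), or by a log2 fold change of -3.17 without DHI 1, and Ctla4 passed as higher both with and without DHI 1.

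Of the cytotoxic granule genes and death ligands beside Gzmb and Prf1, 12 of 15 were tested. In I/R versus Sham 9 were higher and 1, Gzmm, lower, with a median of 1.75, beside 20.8% and 22.3% of all probes. In DHI versus I/R 7 fell, with a median of -1.12, beside 10.5% of all probes. The brightest were Srgn, the proteoglycan core of granules (I/R versus Sham 1.61, SE 0.48), Rab27a, which moves granules to the membrane (2.50, SE 0.73), and Ctsc, the protease that activates granzymes (4.35, SE 1.04). All 3 are also expressed by myeloid cells. They fell in DHI versus I/R by 1.31, 1.99 and 2.91, and without DHI 1 the log2 fold changes were -1.89, -2.90 and -4.29. Granzyme A did not pass in either comparison (0.50 and -0.06, or -0.16 in the latter without DHI 1).

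Of T cell transcription factors, cytokines and homing genes, 12 of 17 were tested, with 9 higher and 1 lower in I/R versus Sham and 6 lower in DHI versus I/R. The chemokine Cxcl10, a ligand of Cxcr3 on activated T cells, had log2 signals of -5.97, -5.04 and -4.59 in Sham, 1.18, 1.55 and 0.08 in I/R, and 0.48, -5.10 and -4.67 in DHI. It rose by 6.14 (SE 1.34) in I/R and fell by 4.04 (SE 1.34) from I/R to DHI (log2 fold change -5.83 without DHI 1), with DHI 1 inside the I/R range and DHI 2 and DHI 3 inside the Sham range. Tbx21, the T-bet factor of cytotoxic cells, was lower in I/R (-0.59, SE 0.23) but did not pass with the adjusted p from limma (0.072). Its probe was bright, at 4.69 to 4.85 in Sham and 4.02 to 4.31 in I/R, and which cells gave that signal was not tested. The T cell cytokines Ifng and Il2 were not above background on any array.

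Of antigen presentation to CD8 and CD4, all 8 tested of 10 genes on the array were higher in I/R than Sham, and 3 of 8 fell in DHI versus I/R (B2m, Tap1 and Tapbp). B2m, the light chain of MHC class I, rose by 2.74 (SE 0.63) and Cd74, the invariant chain of class II, by 3.39 (SE 0.84). In DHI versus I/R, B2m fell by 1.79 (SE 0.63) and Cd74 differed by -1.003 (SE 0.84). Without DHI 1 the values were -2.59 and -1.92, and Cd74 passed. Cd74 was 2.38 (SE 0.84) above Sham in DHI, and without DHI 1 it was 1.47 above and did not pass.

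Across these lists DHI versus Sham gave 1 higher gene of T cell receptor signalling (Cd6), 0 of the inhibitory receptors, 2 of the granule genes (Gzmk and Nkg7), 2 of the factors and homing genes (Ccr7 and Ccl5) and 1 of antigen presentation (Cd74). Without DHI 1, of these genes Nkg7 and Ccr7 still passed, and Lag3 of the inhibitory receptors (0.67) passed as well. Of all probes, 3.58% passed in DHI versus Sham with DHI 1 and 3.5% without it, in either direction. Without DHI 1, the counts that fell in DHI versus I/R were 6 of 11 for T cell receptor signalling, 3 of 5 for the inhibitory receptors and 10 of 12 for the granule genes. They were 8 of 12 for the factors and homing genes and 8 of 8 for antigen presentation, where 19.1% of all probes were lower.

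Most of the tested markers of microglia and macrophages, of leukocytes in general and of NK cells moved with the T cell genes. Of all probes, 20.8% were higher in I/R versus Sham, 10.5% lower in DHI versus I/R and 19.1% lower there without DHI 1. Of the 15 genes of microglia and macrophages, all tested, 14 were higher in I/R versus Sham (median 3.40), and 11 fell in DHI versus I/R (median -2.15), or 14 without DHI 1. Their summed signal, in units of that percentile of the array, was 27.5 to 32.4 in Sham, 169 to 423 in I/R and 35.4 to 236 in DHI, with DHI 1 the highest of the DHI arrays. C1qa rose by 3.97 (SE 0.81) and C1qb by 3.61 (SE 0.72). None of these markers was at background on all arrays.

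Of the pan-leukocyte genes 10 of 11 were higher in I/R and 10 fell in DHI versus I/R, as did 10 without DHI 1, with a summed signal of 13.1 to 13.9, 46.6 to 133 and 14.8 to 65.1 in Sham, I/R and DHI. Of the 13 NK genes 5 were tested, with 4 higher (Cd244, Il2rb, Ncr3 and Klri1) and 1 lower in I/R (Klrk1, -0.59). The same 4 were lower in DHI versus I/R, also without DHI 1, when Klrk1 was higher. Their summed signal did not separate the groups, at 0.332 to 0.456, 0.379 to 0.463 and 0.389 to 0.446, and 50.3% to 92.7% of it was Klrk1. Without Klrk1, a choice made after seeing the data, the sum was 0.0331 to 0.0415 in Sham, 0.117 to 0.230 in I/R and 0.0418 to 0.139 in DHI, with DHI 1 the highest DHI array. The defining NK gene Ncr1 did not clear background on any array, nor did Klrc2 and Klrb1b. The summed signal of the 10 T cell genes was 0.216 to 0.248, 0.690 to 1.26 and 0.229 to 0.963. Cd3d, the brightest of the 10 in Sham and the least raised in I/R, was the largest part of the Sham sums.

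Of the B cell genes 1 of 3 tested was higher in I/R (Cd22, at least 36.04-fold, with no Sham array above background), while Cd79a did not pass and Ms4a1 cleared background on no array. Of the dendritic cell genes 3 of 5 were higher and of the neutrophil genes 4 of 5. Red blood cell genes went the other way, with 4 of 5 lower in I/R, 4 of 5 higher in DHI versus I/R (4 also without DHI 1), and summed signals of 4.62 to 38.6, 2.87 to 4.14 and 9.39 to 49.99. Neuron genes were lower in I/R for 8 of 8 and rose in DHI versus I/R for 6, or 8 without DHI 1, where 26.2% of all probes were higher. Astrocyte genes were higher for 3 of 5 and lower for 1, and of 5 oligodendrocyte genes 0 passed by limma, also at an unadjusted p under 0.05 alone. The part of any of these cells in the T cell gene results was not tested.

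**Figure D4:**
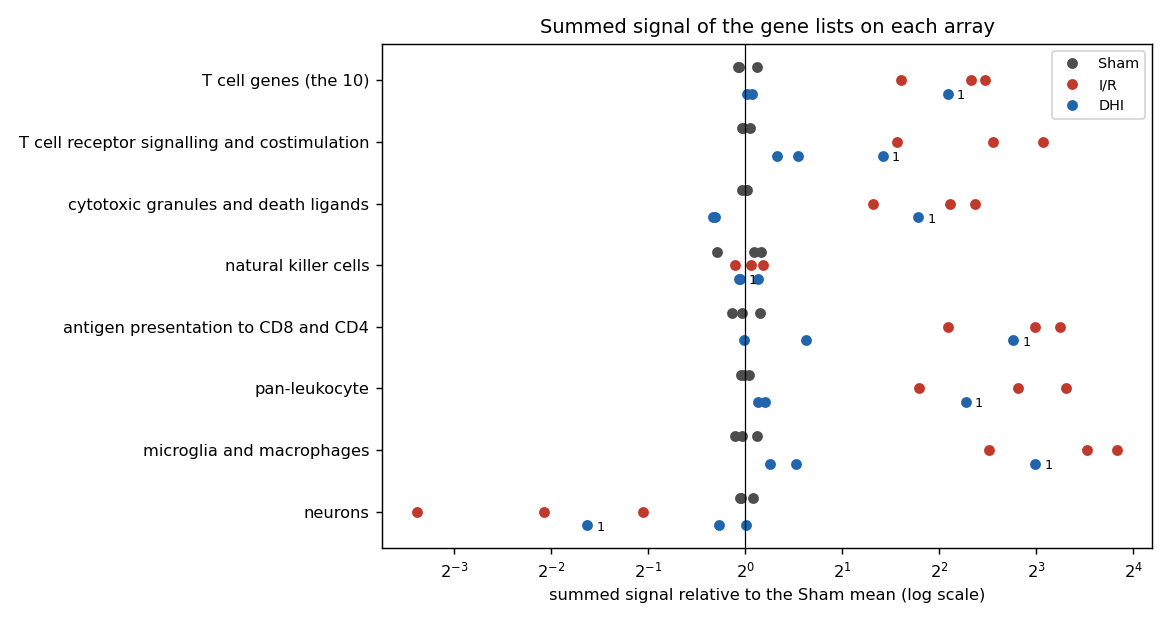
Summed signal of each gene list on each array relative to the mean of the 3 Sham arrays (horizontal log scale), with DHI 1 numbered. The 10 T cell genes reach 3.04 to 5.54 in I/R and 4.24 in DHI 1, beside 1.01 and 1.05 in DHI 2 and DHI 3. The largest part of their Sham sum is Cd3d, the least raised of the 10. Microglia and macrophage genes reach 5.70 to 14.3 in I/R, and the NK sum, most of it Klrk1 on every array, lies between 0.816 and 1.14.

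The genes whose profile over the 9 arrays was most like that of Cd8a were sought among 13662 genes, by the root mean square difference of log2 signals after each gene's mean was removed, arrays at background included. They were Clec7a (0.397), Lilrb4 (0.455), Ly49si1 (0.644), Mmp12 (0.650) and Siglec1 (0.657). Clec7a encodes the receptor dectin-1, and Mmp12 and Siglec1 encode a protease and a lectin. Which cells gave the signal of these 5 genes was not tested. Clec7a, for instance, had log2 signals of -9.80, -10.02 and -9.69 in Sham, -1.001, -1.42 and -2.74 in I/R, and -2.04, -9.27 and -8.65 in DHI. None of the other 9 T cell genes was among the 5.

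The 5 genes nearest to Cd3e were Nkx6-1 (0.725), Mis18a (0.793), Ret (0.916), Ttyh2 (0.941) and Troap (0.967). All 5 were higher in Sham 3 than in the other Sham arrays. Mis18a, for instance, had log2 signals of -5.57, -5.41 and -2.25 in Sham, -2.29, -3.44 and -4.37 in I/R, and -2.30, -5.98 and -4.90 in DHI. The 9 arrays share their groups and scaling, so likeness is a description.

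**Figure D5:**
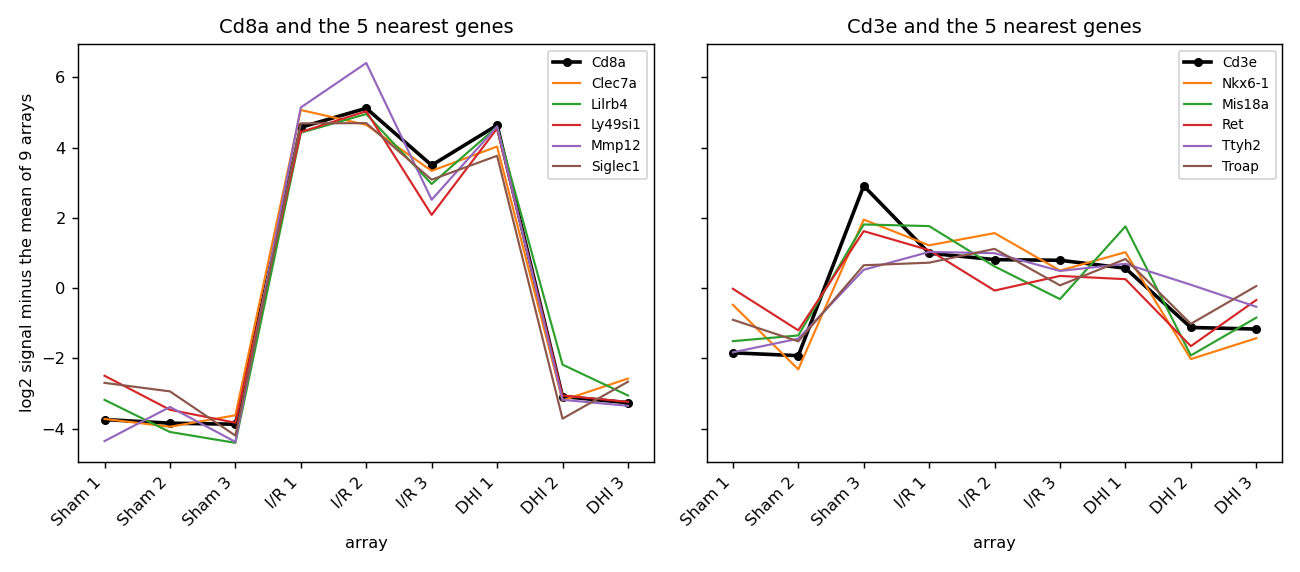
Log2 signal minus the gene's mean over 9 arrays (vertical axis) on each array, for Cd8a (left) and Cd3e (right) in black and the 5 genes nearest to each in colour. Around Cd8a the genes are high in I/R 1 to 3 and DHI 1 and low in the others, and Cd3e peaks in Sham 3.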

How the data were processed

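Total RNA of 9 rat brain hemispheres was measured on Agilent one-color arrays (3 Sham, 3 I/R and 3 DHI, grouped by the sample labels). The authors deposited the output of Agilent Feature Extraction 10.7.1.1 (version per the submitters' processing notes), whose processed signal is a spot intensity on a linear scale, corrected for background, with no scaling from array to array. A table of log2 values per probe, also deposited, served as an alternative, and its normalization is not given in the sources used here.

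The members and gene lists were chosen with earlier results of these data known. Control spots and spots marked as outliers were left out, log2 intensities of a probe's spots were averaged, and the log2 of the array's 75th percentile was subtracted. A probe counted as well above background if a share of at least 0.5 of its spots was marked so, and as tested if this held on all 3 arrays of at least 1 group. The 3 contrasts came from a single limma fit of 9 arrays with 6 residual degrees of freedom (limma 3.58.1, run in R 4.3.3, with files read by data.table version 1.17.8). DEGs had an FC over 1.5 with an unadjusted p under 0.05 or, where stated, a Benjamini-Hochberg adjusted p under 0.05 over all probes tested. The steps were tested on simulated data. A bound on a fold sets the bright group's mean against the lowest signal well above background on each dim array, or the dim probe's own signal where higher.

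Named are all 10 genes, the 3 brightest tested genes of each list, and the 5 genes with the profile nearest to Cd8a and to Cd3e, with others marked in the text. A few genes of the lists are counted but not reported here by name. Alternatives were quantile normalization, no scaling, normexp (offset 50), the series table, no filter, only probes above background on every array, a fit of the groups compared only, array weights, a replicate block, the methods' t-test, the dimmer probe of a gene, and each array left out. Symbols and coordinates are those of the files (rn4). The number of columns of values left unused was 0. The number of arrays limits the precision.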

Additional observations from a re-analysis of the deposited data

How the results depend on the processing

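Of the 3 counts of genes passing the methods' thresholds (8 in I/R versus Sham, 5 in DHI versus I/R, and 0 in DHI versus Sham), several moved with the processing. Normexp gave 4, 3 and 3, where 36.5%, 20.9% and 5.65% of all probes passed in either direction. Keeping only probes above background on all 9 arrays gave 4, 2 and 0, since fewer of the genes were then tested. Of the probes kept, 42.7%, 21.6% and 3% passed. Array weights gave 8, 8 and 2, where 55.8%, 51.4% and 17.6% of all probes passed. The methods' t-test gave 8, 0 and 0, where 39.8%, 1.97% and 1.89% passed. Leaving out 1 array at a time gave 6 to 9, 2 to 7 and 0 to 2, and the count with an adjusted p in I/R versus Sham (7) ran from 0 to 8, at 0 without any 1 Sham array and without I/R 1, I/R 2 or DHI 3. It was also 0 with no scaling, and in each of these settings 0 or 1 of all probes passed with the adjusted p. The number of all probes passing in DHI versus I/R was 5211, and 2149 with only the groups compared, 12217 with array weights and 469 with the methods' t-test. In DHI versus Sham it was 849, and 1688 with no scaling, 1341 with normexp, 1407 with no filter, 4175 with array weights, 1280 with the replicate block and 448 with the t-test. With 1 array left out it ran from 939 to 10737 in DHI versus I/R and from 344 to 2519 in DHI versus Sham. With the adjusted p it was 7471 in I/R versus Sham, and 1 with no scaling, 5017 with no filter, 13224 with array weights and 0 to 10266 with 1 array left out. The share of passing probes that were higher in DHI versus I/R was 52.2%, 4.801% with no scaling, which moved the median of all probes from 0.10 to -0.36, and 63.7% with normexp. In DHI versus Sham it was 70.4%, 37.5% with quantile normalization, 37.0% with the series table, 5.21% with no scaling, 92.9% with normexp and 59.2% with the t-test. In I/R versus Sham it was 48.3%, and 60.9% with no scaling.

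Some log2 fold changes turned sign. With normexp, Cd3e was -0.13 in I/R versus Sham, Cd3e was 0.27, Gzmb 0.064 and Prf1 0.21 in DHI versus I/R, and Cd3e was 0.14 in DHI versus Sham. In DHI versus Sham, Cd3d was -0.045 with no scaling, Cd8b was -0.51 and Cd3g -0.40 with array weights, and with 1 array left out Cd8b ran from -0.46 (without DHI 1) to 1.11, Cd3g from -0.20 (without DHI 1) to 1.26, and Cd3e from -1.11 to 1.31 (without Sham 3). The cause was not tested. Cd8a, Cd8b, Cd3d, Cd3g, Cd4 and Cd5 kept their direction in I/R versus Sham and DHI versus I/R under every setting in which they were tested. Cd8a, Cd3e, Cd5, Gzmb and Prf1 had no value where probes had to be above background on all 9 arrays.

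The sample labels do not say whether the replicate numbers pair the rats, and 3 arrays per group are too few to tell. The correlation of deviations from the group mean between same-numbered arrays ran from -0.34 to 0.48 over 9 pairs, with 4 over 0.1, and 2 arrays correlated best with their own number. With the replicate number as a block the counts were 8, 5 and 1 (Cd4 in DHI versus Sham), where 43.8%, 26.6% and 5.39% of all probes passed. Levels not above background have only an upper bound. These are Cd2 on all arrays but I/R 3, Cd8a and Cd5 in Sham, Cd3e and Prf1 in Sham 1 and Sham 2, Prf1 in DHI 2, and Cd8a, Cd3e, Cd5 and Gzmb in DHI 2 and DHI 3.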
